A study of Mus musculus with 8 samples.

Results

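PPARb binding was compared between oligodendrocytes taken directly from mouse brain and oligodendrocytes grown in culture, site by site and gene by gene. Every peak that the authors had called with a PPARb antibody on chromosomes 1 to 19, X and Y was used, 1391 in isolated cells and 26404 in differentiated cells, of 109670 peaks in the 6 deposited lists. Peaks of the 2 cell kinds were paired when their centres lay less than 200 bp apart, which gave 1034 shared sites, 357 isolated-alone sites and 25370 differentiated-alone sites, 26761 in all. The isolated cells came from C57BL6 brains, were captured with magnetic beads against O4, a surface antigen of the oligodendrocyte lineage, and were at passage 0. The differentiated cells were derived from neural stem cells with a hybrid FvB/C57BL6 background, carried ectopic PPARb with an HA tag, and were at passage 7 in Neurobasal medium with B-27, GlutaMAX, the growth factor IGF-1 and the thyroid hormone T3. The same PPARb antibody was used in both, on sonicated nuclei. Other lists came from antibodies to Qki-5 (both cell kinds), and, for differentiated cells, to HA and to Pol II (RNA polymerase II). Each group had 1 library and each cell kind its own input library. Cell source, strain background, the introduced receptor, passage and library therefore cannot be told apart as sources of a difference, and no value below has a replicate error.

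PPARb, the product of Ppard and also called PPAR delta, is a nuclear receptor that fatty acids and their derivatives activate. It binds DNA as a pair with a retinoid X receptor, typically at a direct repeat of the half-site AGGTCA with 1 base between the copies, and its best known targets serve fatty acid uptake, oxidation and storage. Oligodendrocytes build myelin, a membrane rich in lipid, and Qki-5, the nuclear form of the RNA-binding protein Quaking, is known as a regulator of oligodendrocyte maturation.

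The peak height used here is the authors' tag count scaled to 10000000 tags per library, and a percentile is a peak's rank by height within its own list, 100 being the tallest. Heights were never subtracted between lists. The isolated PPARb library had 18389111 tags, 0.117% of them in peaks, and the differentiated PPARb library 22471011 tags, 2.78% in peaks. An isolated peak of median height held 14 tags and a differentiated one 22, and the isolated heights took 25 distinct values, so ranks there have many ties. In the isolated library 58.0% of 3367 putative peaks had been removed by the caller's filter against input, against 17.5% of 34661 in the differentiated library. A site without an isolated peak was not called in that library, which is not the same as unbound. In bulk chromatin, binding in few cells and weak binding in many cannot be told apart. As a check of the labelled cell types, Pol II peaks of differentiated cells lay within 1000 bp of a gene boundary at 1 of 9 oligodendrocyte markers (Cnp), 2 of 5 astrocyte markers, 2 of 5 neuron markers, 2 of 4 precursor markers and none of 5 microglia or 4 endothelial markers. Mbp, Mag, Mog, Sox10 and Olig2 had none. Isolated-cell Qki-5 peaks lay at Mag, Cnp and Mobp of the oligodendrocyte markers and at Cldn5 and Flt1 of the endothelial markers. The peak lists thus do not establish the cell type of either library.

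Sequence is shown for 9 promoters, from the RefSeq promoter table of GRCm38.p6 (mm10), cut to the called peak and running 5′ to 3′ on the strand of the gene. The first 4 are shown because they hold a match, with up to 2 mismatches, to a direct repeat of the receptor's half-site. Etfa, which encodes a subunit of the electron transfer flavoprotein that takes electrons from fatty acid oxidation, had a shared site (chr9:55512228-55512428, minus strand). Slc25a20, the mitochondrial carnitine and acylcarnitine carrier, had a shared site (chr9:108662032-108662156, plus strand). Hspd1, the mitochondrial chaperonin that is transcribed away from its partner Hspe1, had a shared site (chr1:55087972-55088172, minus strand). Srp54a, a subunit of the signal recognition particle, had a differentiated-alone site (chr12:55080327-55080516, plus strand). Capitals mark the best match, on either strand, to 2 copies of AGGTCA separated by 1 base. The match has 2 mismatches in Etfa, Slc25a20 and Hspd1 and 0 in Srp54a, and it begins 77 bases before the annotated start in Etfa, 174 before it in Hspd1 and 118 before it in Srp54a.
Etfa: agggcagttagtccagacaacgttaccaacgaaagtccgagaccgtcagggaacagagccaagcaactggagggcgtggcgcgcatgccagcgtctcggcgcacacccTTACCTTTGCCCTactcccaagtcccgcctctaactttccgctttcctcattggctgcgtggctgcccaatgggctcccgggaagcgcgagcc
Slc25a20: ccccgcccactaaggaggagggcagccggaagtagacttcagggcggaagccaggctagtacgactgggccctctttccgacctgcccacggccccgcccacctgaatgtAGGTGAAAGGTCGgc
Hspd1: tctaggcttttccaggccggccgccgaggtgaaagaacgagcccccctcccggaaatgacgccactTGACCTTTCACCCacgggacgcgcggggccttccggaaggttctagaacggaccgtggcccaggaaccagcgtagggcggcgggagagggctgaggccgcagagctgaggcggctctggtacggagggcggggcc
Srp54a: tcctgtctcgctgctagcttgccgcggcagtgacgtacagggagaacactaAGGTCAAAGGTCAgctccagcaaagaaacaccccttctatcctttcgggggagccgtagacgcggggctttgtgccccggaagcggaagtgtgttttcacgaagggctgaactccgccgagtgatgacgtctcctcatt

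Those 4 promoters did not rank alike. The Etfa site had 20 tags in isolated cells (height 10.9, percentile 91.6) and 38 in differentiated cells (height 16.9, percentile 91.7). The Hspd1 site had 18 tags (height 9.79, percentile 83.3) and 65 tags (height 28.9, percentile 99.9). The Slc25a20 site had 13 tags (height 7.07, percentile 24.3) and 20 tags (height 8.90, percentile 42.8), in the lower part of both lists. The Srp54a site had 32 tags in differentiated cells (height 14.2, percentile 82.4), with no HA peak beside it and no isolated PPARb peak.

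The next 5 were searched for other short motifs. The Hjurp, Rab1a, Gnb2 and Etfb sites were tall in their lists, and Hadha and Etfb are genes of fatty acid oxidation. Hjurp, a chaperone of the centromeric histone, had the second tallest peak of the differentiated list in its promoter (chr1:88277559-88277740, minus strand). Rab1a, a GTPase of transport from the endoplasmic reticulum to the Golgi, was tall in both lists (chr11:20201221-20201421, plus strand). Hadha, the alpha subunit of the mitochondrial trifunctional protein of fatty acid oxidation, shares its promoter with Hadhb on the opposite strand (chr5:30155072-30155230, minus strand). Gnb2, a G protein beta subunit, had the tallest isolated-alone peak near a gene boundary (chr5:137533301-137533501, minus strand). Etfb, the partner subunit of Etfa, was among the tallest differentiated-alone promoters (chr7:43443935-43444092, plus strand). Capitals mark GGGCGG (the GC box) and CCGGAAG (an ETS-type motif), on either strand. Neither motif occurs in the Gnb2 piece, and the Hadha, Hjurp and Etfb pieces hold 1 each and Rab1a 2.
Hjurp: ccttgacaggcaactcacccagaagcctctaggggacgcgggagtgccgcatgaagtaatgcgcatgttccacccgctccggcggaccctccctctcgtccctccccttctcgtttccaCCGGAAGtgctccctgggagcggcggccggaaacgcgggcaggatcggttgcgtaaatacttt
Rab1a: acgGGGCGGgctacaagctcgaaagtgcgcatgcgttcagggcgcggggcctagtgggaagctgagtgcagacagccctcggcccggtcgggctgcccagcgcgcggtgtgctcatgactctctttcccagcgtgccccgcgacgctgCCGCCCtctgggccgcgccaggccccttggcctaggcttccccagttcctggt
Hadha: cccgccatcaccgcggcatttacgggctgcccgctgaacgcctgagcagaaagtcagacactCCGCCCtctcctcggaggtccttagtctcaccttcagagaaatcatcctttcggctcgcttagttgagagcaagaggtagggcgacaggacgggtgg
Gnb2: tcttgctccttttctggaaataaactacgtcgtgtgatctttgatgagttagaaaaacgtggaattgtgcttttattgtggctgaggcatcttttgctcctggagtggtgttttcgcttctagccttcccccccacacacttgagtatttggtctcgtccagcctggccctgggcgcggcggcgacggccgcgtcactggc
Etfb: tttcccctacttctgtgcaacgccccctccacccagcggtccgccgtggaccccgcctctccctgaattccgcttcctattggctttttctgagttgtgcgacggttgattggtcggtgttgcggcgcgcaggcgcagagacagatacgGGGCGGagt

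Most isolated peaks had a counterpart in the differentiated list, whereas few differentiated peaks had one in the isolated list. Of the 1391 isolated peaks, 1034 were paired, 74.3% (95% exact Clopper-Pearson interval 72.0 to 76.6), and these were 3.92% (3.69 to 4.16) of the 26404 differentiated peaks. The paired centres lay a median of 53 bp apart, 47.7% of them within 50 bp and 79.6% within 100 bp. Intervals of shares and heights cover counting error only, since sequencing tags and peaks are not replicates. The members closest inside the pairing limit were at Hps5 (198 bp apart, heights 9.24 and 22.3), Ccne1 (196 bp, 7.61 and 12.5) and Rpl31 (194 bp, 8.70 and 15.1). Those closest outside it were at Slc35a5 (203 bp, 7.61 and 9.79), Dek (204 bp, 7.61 and 15.6) and Gpbp1 (206 bp, 7.07 and 12.9), with like heights.

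The isolated-alone sites were of several kinds by distance. Of the 357, 149 (41.7%, 36.6 to 47.0) had a differentiated peak 200 to 1000 bp away, 41 (11.5%) had one within 5000 bp, and 167 (46.8%, 41.5 to 52.1) had none within 5000 bp. With a pairing distance of 1000 bp, 84.9% of isolated peaks had a partner, and with 50 bp 35.4% did.

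Whether a differentiated peak had an isolated partner followed its height. The differentiated list was cut into 5 bands of 20 percentiles. In the lowest band, heights 4.45 to 6.68, 11 of 5460 peaks (0.201%) were paired. In the middle band, heights 8.90 to 10.7, 124 of 5445 (2.28%) were. In the top band, heights 13.8 to 50.7, 603 of 5529 (10.9%, 10.1 to 11.8) were. Even among the 100 tallest differentiated peaks only 19 had a partner. When only as many of the tallest differentiated peaks were kept as the isolated list holds, 15.7% of peaks on either side were paired. The isolated list showed a milder slope, from 64.2% (57.1 to 71.0) paired among 193 peaks under a height of 7 to 84.4% (74.4 to 91.7) among 77 peaks from 11 to 14. Of the 22 isolated peaks of height 14 and over 16 were paired (72.7%, 49.8 to 89.3).

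**Figure D1:**
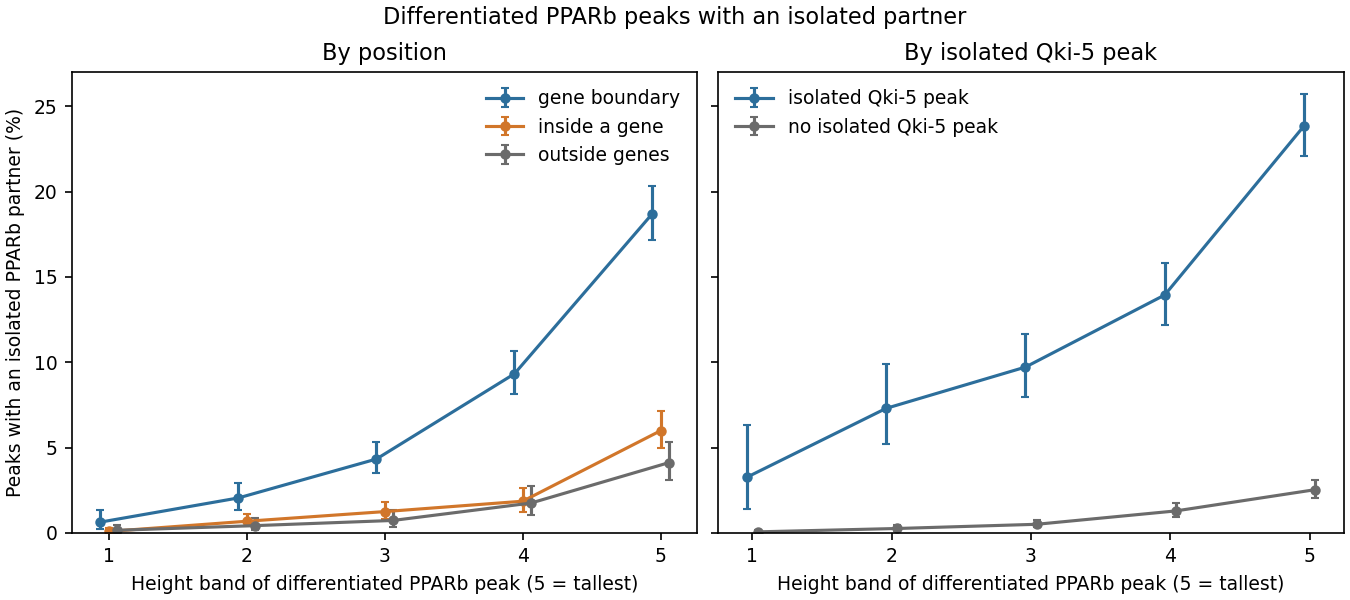
Share of differentiated PPARb peaks with an isolated PPARb partner (vertical axis, percent) by band of differentiated peak height (horizontal axis, 20 percentiles each, 5 the tallest), split by position on the left and by an isolated Qki-5 peak on the right; points are shares and bars 95% exact intervals. In the top band the share was 18.7% at gene boundaries, 5.99% inside genes and 4.12% outside, and 23.9% with and 2.53% without an isolated Qki-5 peak.

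Shared sites lay nearer to genes' ends than the other classes. A gene boundary here is either end of a protein-coding gene in a RefSeq table that gives no strand. Within 1000 bp of one lay 758 of the 1034 shared sites (73.3%, 70.5 to 76.0), 158 of the 357 isolated-alone sites (44.3%, 39.0 to 49.6) and 8089 of the 25370 differentiated-alone sites (31.9%, 31.3 to 32.5). The median distance to a boundary was 131 bp for shared, 2674 bp for isolated-alone and 9375 bp for differentiated-alone sites. The promoter table, which has strand, gave near-equal shares within 1000 bp of an annotated start, 73.9%, 45.3% and 32.5%. Among those sites the median centre was 34 bp, 78.5 bp and 10 bp upstream of the start, respectively.

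Boundary peaks were paired in a higher share within bands of height as well. In the top band of the differentiated list, 18.7% (17.1 to 20.4) of 2330 boundary peaks had an isolated partner, against 5.99% (4.96 to 7.16) of 1887 peaks inside genes and 4.12% (3.11 to 5.34) of 1312 outside genes. In the band above the lowest the shares were 2.05%, 0.678% and 0.422%. Read from the other side, 82.8% (80.1 to 85.1) of 916 isolated boundary peaks had a differentiated partner, and 59.2% (53.5 to 64.7) of 311 inside genes and 56.1% (48.1 to 63.8) of 164 outside did. The 100 tallest differentiated peaks were themselves mostly away from boundaries, 23 lying at one.

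**Figure D2:**
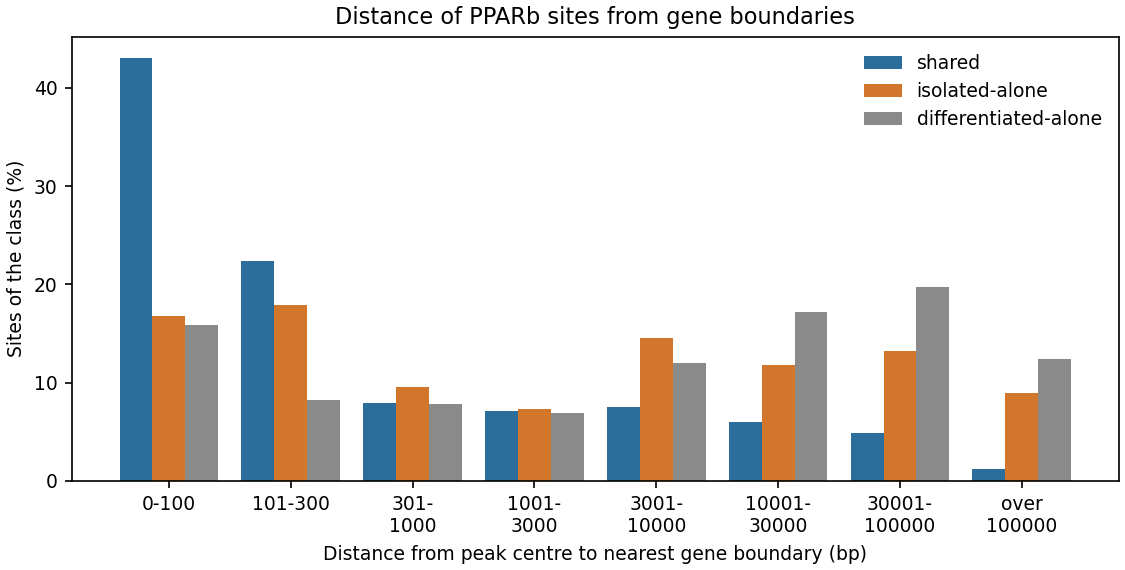
Distance from the peak centre to the nearest boundary of a protein-coding gene (horizontal axis, bp) against the share of sites of each class (vertical axis, percent). Of shared sites 43.0% lay within 100 bp, against 16.8% of isolated-alone and 15.8% of differentiated-alone sites.

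Across the 1034 shared sites the height ranks of the 2 lists were only loosely related. Spearman's rho was 0.25 over sites, and 0.03 when both lists were ranked by fold over input. These are descriptions across sites of 2 libraries that share the antibody. Shared sites had a median height of 8.16 (quartiles 7.07 and 9.24) in isolated cells, where isolated-alone sites had 7.61, and 14.7 in differentiated cells, where differentiated-alone sites had 9.35. Their median percentile was 56.4 in the isolated and 84.4 in the differentiated list. By fold over input these medians were 49.0 and 59.6, so that in the isolated list shared sites stood above the middle by height but not by fold over input. In isolated cells their median fold over input was 5.84, against 6.20 at isolated-alone sites, the reverse of the order by height. Of the 218 shared sites in the top band of the isolated list, 164 (75.2%) were also in the top band of the differentiated list, against 58 of the 124 in the bottom band (46.8%).

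**Figure D3:**
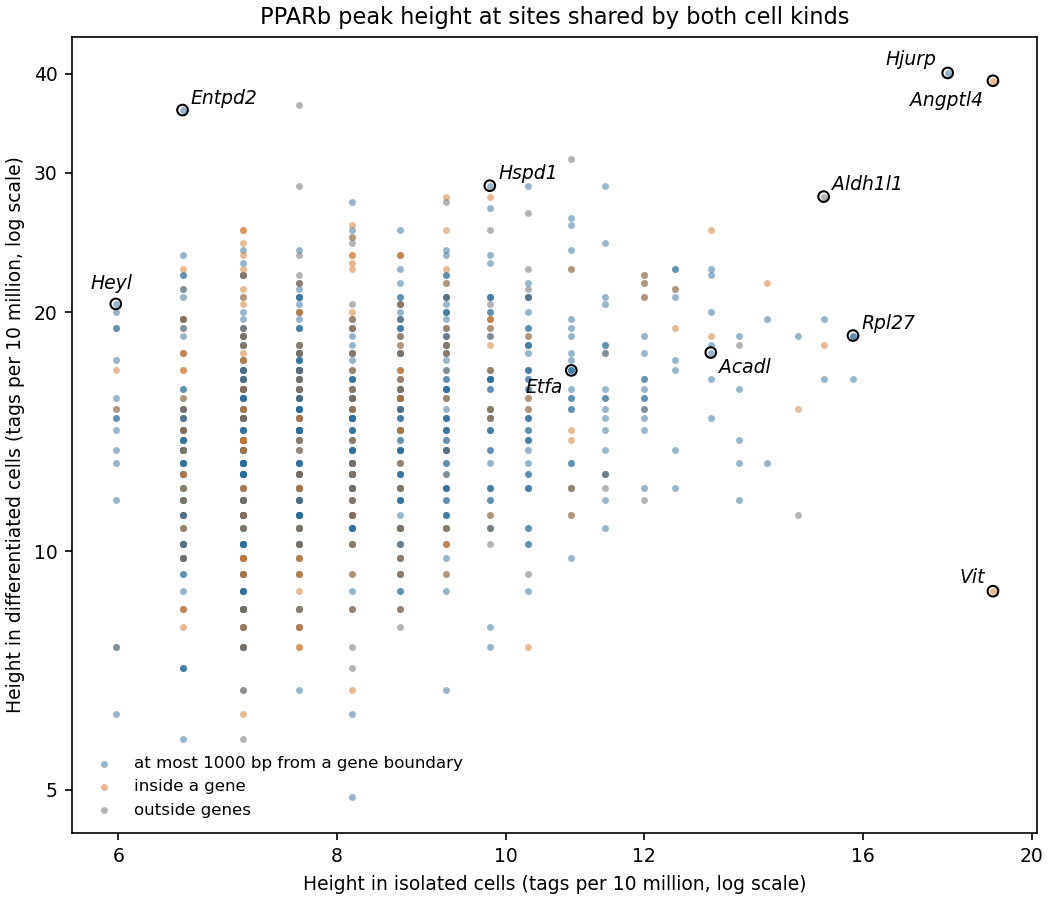
PPARb peak height in isolated cells (horizontal axis, tags per 10000000, log scale) against that in differentiated cells (vertical axis, same unit, log scale) at the 1034 shared sites, coloured by position, with 10 sites named. Angptl4 and Hjurp stand apart at the upper right, Entpd2 and Heyl at the left have low isolated and high differentiated heights, and Vit at the lower right has the reverse.

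Prominence in both lists by height was clearest at 15 sites, ordered by the smaller of their percentiles. The first was inside Angptl4, which encodes a secreted inhibitor of lipoprotein lipase and is a classical PPAR target (chr17:33779320-33779520). It had 35 tags in isolated cells, a height of 19 (95% exact Poisson interval 13.3 to 26.5, rank 5 of 1391), and 88 tags in differentiated cells, a height of 39.2 (31.4 to 48.2, rank 3 of 26404). The Hjurp promoter followed, with a height of 17.9 (12.4 to 25.2, rank 8) in isolated and 40.1 (32.2 to 49.2, rank 2) in differentiated cells. It was followed by a site 15450 bp from Aldh1l1, a folate enzyme used as an astrocyte marker, with heights of 15.2 (10.1 to 22.0, rank 12) and 28.0 (21.5 to 35.9, rank 46). Of the others, 9 lay near Rab1a, Esyt2, Nupl1, Klf15, Calm3, Cdkn2aip, 1110032A03Rik, Neurl4 and Brpf1, with heights from 12.5 to 15.2 in isolated and 19.6 to 25.4 in differentiated cells. Those genes serve unlike functions, among them calcium signalling (Calm3) and transcription (Klf15, a Kruppel-like factor). Isolated fold over input at the 15 sites ran from 4.36 (Nupl1) to 12.4 (Brpf1), beside a median of 5.98 for the isolated list. It was 5.16 at Angptl4 and 4.38 at Hjurp, the latter close to the caller's limit of 4.

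Other shared sites ranked high in 1 list and low in the other. Vit, which encodes an extracellular matrix protein, had an intronic or exonic site 31424 bp from the gene's ends (chr17:78595885-78596085) with a height of 19 (13.3 to 26.5, percentile 99.6) in isolated and 8.90 (5.44 to 13.8, percentile 42.8) in differentiated cells. None of the other 4 lists had a peak there. The remaining sites of higher isolated rank, at Smim5, Nars, Cwf19l1, Ramac, Rpa2, Ccdc124 and Rhpn2, had isolated heights of 8.16 to 10.3, with 15 to 19 tags, and differentiated heights of 4.90 to 8.90. In the opposite direction, Entpd2, an ectonucleotidase, had a height of 6.53 (3.37 to 11.4, percentile 7.94) in isolated and 36.0 (28.6 to 44.8, rank 6) in differentiated cells. Heyl, a target of Notch signalling, had heights of 5.98 and 20.5, and Smarca4, the ATPase of a chromatin remodelling complex, 5.98 and 17.4. Hsdl2, C1qbp, Ranbp3, Smim8 and Zcchc24 made up the rest, with isolated heights of 5.98 to 6.53 on 11 or 12 tags. Since these 16 sites were picked for their difference in rank, that difference is a description only.

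The 4 tallest isolated peaks had no partner in the differentiated list. Ranks 1 to 4 of the isolated list were all isolated-alone, and so was 1 of the peaks tied at rank 5. The tallest lay 20707 bp from Foxf1, a transcription factor gene (chr8:121063579-121063779), with 59 tags and a height of 32.1 (24.4 to 41.4). Second was a site 22595 bp from Pisd, a mitochondrial phosphatidylserine decarboxylase (height 21.8, 15.5 to 29.6). Neither had a peak in any of the other 4 lists. The third lay inside Tmcc3 (20.1, with an HA peak), the fourth inside Galnt2 (19.6, with an isolated Qki-5 peak) and the next inside Magi2, a synaptic scaffold gene (19, with an isolated Qki-5 peak). Near boundaries the tallest were at Gnb2 (14.7, 9.68 to 21.4), Rap2a (13.1), Tom1l2 (12.5), and the RNA-binding protein genes Ddx5 and Tardbp (12 each). Elovl6, a fatty acid elongase, and Ephb1, an ephrin receptor, held sites of height 12 inside the gene. Of these 7, only Ephb1 lacked an isolated Qki-5 peak, but the taller sites near Foxf1 and Pisd and inside Tmcc3 lacked one too. Such a peak lay at 53.8% of all 357 isolated-alone sites and at 67.1% of the 158 at a boundary.

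Of the 12 tallest differentiated-alone sites 11 lay over 1000 bp from a gene boundary. The tallest peak of that list, height 50.7 (41.8 to 60.9), lay 31050 bp from 4930467E23Rik (chr8:19784553-19784753) and all 4 other lists had a peak there. The next were inside Ldlrad3 (38.3), 4930402H24Rik and Ppm1l (33.4 each) and Tmcc3 (32.5), the last at another position than the isolated-alone Tmcc3 site. Kcnk2, Vps37b, Rps24, Tex33, Adamts16 and Slc38a1 had sites of height 30.3 to 32.0 inside the gene or 8531 bp or more outside. Psmd3, a proteasome subunit, was the 1 boundary site of these 12, with a height of 31.2 (24.3 to 39.4) and an isolated Qki-5 peak of 19.2. All 12 had an HA peak, of heights 27.7 to 81.6, and 10 had no isolated Qki-5 peak. Over all 25370 differentiated-alone sites 72.9% had an HA peak, 18.1% had an isolated Qki-5 peak and 31.9% lay at a boundary. The low frequency of isolated Qki-5 is thus not particular to the tallest sites.

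The HA list was not used to define the classes, but it is not independent of them. It comes from the same differentiated cells and input as the differentiated PPARb list, and from the introduced PPARb, which the PPARb antibody may also bind. An HA peak lay less than 200 bp from 86.0% (83.7 to 88.0) of shared, 72.9% (72.4 to 73.5) of differentiated-alone and 32.2% (27.4 to 37.3) of isolated-alone sites. Differentiated-cell Qki-5 peaks were at 90.9%, 73.7% and 32.5%, and Pol II peaks at 58.3%, 35.5% and 22.7%, in the same order. With centres up to 1000 bp apart the Pol II order was lost, at 82.3%, 45.1% and 45.4%, and the differentiated Qki-5 shares were 98.3%, 83.1% and 56.0%. Over 1000 bp from a boundary, 15.6% of isolated-alone sites had a differentiated Qki-5 peak and 9.05% a Pol II peak. Isolated-cell Qki-5 peaks, which come from the same cell kind and input as the isolated PPARb list, lay at 84.1% (81.8 to 86.3) of shared, 53.8% (48.5 to 59.0) of isolated-alone and 18.1% (17.6 to 18.5) of differentiated-alone sites. Of the isolated-alone sites 99 (27.7%) had no peak in any of the 4 lists and 72 (20.2%) had isolated Qki-5 alone. The same was true of 10 and 20 of the 1034 shared sites.

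**Figure D4:**
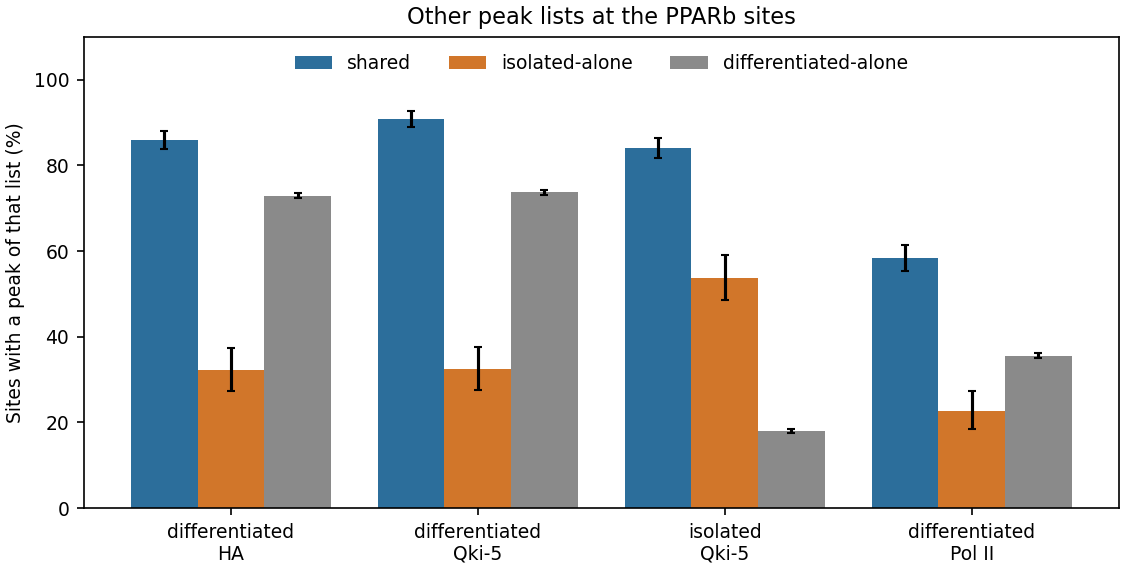
Share of shared, isolated-alone and differentiated-alone PPARb sites with a peak of each other list less than 200 bp away (vertical axis, percent, bars 95% exact intervals). Within that distance HA, differentiated Qki-5 and Pol II peaks were least frequent at isolated-alone sites (for Pol II this was not so with 1000 bp, 45.4% against 45.1% at differentiated-alone sites), and isolated Qki-5 peaks least frequent at differentiated-alone sites.

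Differentiated peaks with an isolated Qki-5 peak had an isolated PPARb partner in a higher share than those without, in each height band and each of the 3 positions. Of the 5451 differentiated PPARb peaks with an isolated Qki-5 peak, 15.96% (15 to 17.0) had an isolated PPARb partner, against 0.783% (0.668 to 0.912) of the 20953 without. At boundaries the shares were 16.7% and 1.84%, inside genes 13.2% and 0.589%, and outside genes 15.5% and 0.302%. In the lowest height band they were 3.25% and 0.0575%, and in the highest 23.9% and 2.53%. Both isolated lists have 1 input in common, and the part of that shared input in this relation was not tested.

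The partner share also rose with HA height. Among differentiated PPARb peaks with an HA peak, 0.582% of 1890 up to the 20th percentile of the HA list were paired, 4.57% of 4489 between the 60th and 80th percentile, 12.5% of 1055 between the 95th and 99th, and 16.8% (12.7 to 21.6) of 291 in the top 1 percent. PPARb height moved with it, from a median of 7.12 to 20.9. Of the 20 PPARb peaks with the tallest HA peaks, a set chosen after its values were seen, 11 were shared (55.0%, 31.5 to 76.9).

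The 11 shared sites of that set were assigned to Klf10 (HA height 121.2), Angptl4 (99), Mlycd (93.5), Lpcat3 and Etfa (88.7 each), Acadl (87.1), Klf11 (85.5), Ptma (84.0), Crtc2 (78.4), Fitm2 (73.7) and Txnip (72.9). The Ptma and Txnip sites lay outside those genes, 38957 bp and 2585 bp from the nearest boundary. Mlycd breaks down malonyl-CoA, the inhibitor of fatty acid entry into mitochondria, Lpcat3 remodels phospholipids, Acadl is a long-chain acyl-CoA dehydrogenase, and Fitm2 acts in lipid droplet formation. The isolated heights at these 11 ran from 7.07 (Lpcat3) to 19 (Angptl4). Differentiated-alone were the sites assigned to Cpt1a (HA height 122.8, the tallest), Etfb (114.1), Acaa2 (103.8), Efcab11 and Mlst8 (93.5 each), 4930467E23Rik (81.6), Pdgfra (80.8), Agpat3 (76.8) and Nup85 (74.5), those of Efcab11 and 4930467E23Rik lying 64113 bp and 31050 bp outside the gene. Cpt1a is the carnitine acyltransferase that commits fatty acids to mitochondrial oxidation, Acaa2 the last enzyme of its spiral, and Pdgfra the receptor that marks oligodendrocyte precursors. Of the 20, 9 had an isolated Qki-5 peak and 11 lay at a boundary.

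At the level of genes, a shared boundary site was found at 912 of 21887 protein-coding genes (4.17%), an isolated-alone boundary site at 185 (0.845%), a differentiated-alone one at 8403 (38.4%), any isolated boundary peak at 1097 (5.01%) and any differentiated boundary peak at 9207 (42.1%). Of the 1097 genes, 912 (83.1%) had a shared site, 131 had an isolated-alone and a differentiated-alone site at different positions, and 54 (4.92%) had no differentiated boundary peak. Of genes with a differentiated boundary peak 9.91% had a shared one. The lists below were chosen with earlier results of these data known, and their counts are read beside these shares with no test.

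Fatty acid oxidation genes had shared sites in 6 of 34 (17.6%), beside 4.17% of all genes. That was 21.4% of the 28 with any differentiated boundary peak, beside 9.91% over all genes. The respiratory chain, ribosomal protein, chaperone and splicing factor lists had a like level, 17.1% to 21.6% of their genes. No gene of the list had an isolated-alone boundary site, a kind at only 0.845% of all genes. The genes with a shared site were Acadl, Etfa, Hadha, Hadhb, Ech1 and Slc25a20, at 5 sites because Hadha and Hadhb share a promoter. The Acadl site, 447 bp from the gene's boundary (chr1:66862762-66862962), had 24 tags in isolated cells, a height of 13.1 (8.36 to 19.4, percentile 97.6), and 40 in differentiated cells, a height of 17.8 (12.7 to 24.2, percentile 93.7). It was tall in both lists. The Hadha and Hadhb site had heights of 8.16 (4.57 to 13.5) and 12.9 (8.64 to 18.5), and Ech1, an enoyl-CoA isomerase, 7.07 and 16. Differentiated-alone sites stood at 22 genes of the list, 64.7% beside 38.4% of all genes. Among them were Etfb (29.4) and Etfdh, which passes electrons on from the flavoprotein (20). Acadvl had a differentiated-alone site of 14.2.

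Of the known PPAR targets, 3 of 33 had a shared boundary site (Acadl, Hadha, Slc25a20), 9.09% beside 4.17% of all genes. Klf10 alone had an isolated-alone one, 3.03% beside 0.845%. Any differentiated boundary peak was at 39.4% of the 33, beside 42.1% of all genes, and a differentiated-alone one at 30.3%, beside 38.4%. Klf10, a Kruppel-like factor, carried a shared and an isolated-alone site. A shared site inside the gene, 1401 bp from its boundary, had heights of 9.79 and 28.0, and the isolated-alone site 142 bp from the boundary had 8.16 (4.57 to 13.5). Angptl4 does not count among the 3, because its shared site lies 2155 bp from the boundary. Within the gene or 5000 bp of it, Cpt1a had 3 differentiated-alone sites, the tallest 22.7 (16.9 to 29.8), Plin2, a lipid droplet coat protein, 1 (9.35) and Acaa2 2 (19.1 and 9.35), and Pdk4, an inhibitor of glucose oxidation, had no site of either list.

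Among the receptors themselves, Ppard and Rxrb had an isolated peak. Ppard, the gene of the receptor, had an isolated-alone site 46 bp from its boundary with 12 tags, a height of 6.53 (3.37 to 11.4), and 2 differentiated-alone sites inside the gene (14.2 and 7.12). HA, both Qki-5 lists and Pol II had a peak at the isolated-alone position. The partner receptor Rxrb had a shared site with heights of 7.61 (4.16 to 12.8) and 17.8 (12.7 to 24.2). Counted over the same window, Rxra had 4, Ppara 4, Pparg 4 and Rxrg 1 differentiated-alone sites and no isolated one. Qk, which encodes Quaking, had a differentiated-alone site of height 11.6. Of the 35 nuclear receptors and cofactors, 1 had a shared (2.86%) and 1 an isolated-alone boundary site (2.86%), and 23 had a differentiated-alone one (65.7%), beside 4.17%, 0.845% and 38.4% of all genes.

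In 5 other lipid lists the share of genes with a shared site ran from 4.17% to 11.1%, on counts of 1 or 2 genes each, beside 4.17% of all genes. Fatty acid synthesis had shared sites at Acly, the source of cytosolic acetyl-CoA, and Fasn, fatty acid synthase (2 of 34, 5.88%), with isolated heights of 9.24 at both and differentiated heights of 9.35 and 14.7. Cholesterol synthesis had Srebf2, its master transcription factor (10.3 and 12), and Lss, lanosterol synthase (7.61 and 9.79), shared, and Insig1, which retains the SREBP complex, isolated-alone (8.70). The peroxisome list had Pex10 shared (6.53 and 8.46) and Far1, an enzyme of ether lipid synthesis, isolated-alone (7.07). Dgat1, the last enzyme of triglyceride synthesis (11.4 and 18.2), and Abhd5, the activator of triglyceride lipase (10.3 and 16), were shared, and Plin3 was isolated-alone (8.16). In the sphingolipid list Degs1 was shared (8.16 and 8.46), and Galc, which degrades galactosylceramide of myelin, was isolated-alone (7.07).

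Housekeeping lists had shared sites in 12% to 21.6% of their genes, beside 4.17% of all genes. The respiratory chain had 8 of 37 genes with shared sites (21.6%), ribosomal proteins 8 of 42 (19%), chaperones 5 of 25 (20%), splicing factors 6 of 35 (17.1%) and the proteasome 3 of 25 (12%). None of these 5 lists had an isolated-alone boundary site, a kind found at only 0.845% of all genes. Their genes had a differentiated boundary peak in 91.9%, 85.7%, 96.0%, 74.3% and 96.0%, well above the 42.1% of all genes. As shares of the genes with such a peak the shared ones were 23.5%, 22.2%, 20.8%, 23.1% and 12.5%, beside 9.91% over all genes. In the respiratory chain Ndufs1, a core subunit of complex I, had heights of 9.24 and 23.6, and Cox5b, a subunit of cytochrome oxidase, 8.70 and 15.6. Rpl27 had the tallest isolated peak of the ribosomal list, 15.8 (10.6 to 22.7, rank 9) beside 18.7, and Rps12 had 11.4 and 24.5. Of the citric acid cycle, 2 of 23 genes were shared (Cs and Dlat), and of the circadian clock 2 of 20 (Cry1 and Per2).

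The immediate-early and growth-arrest list had the most isolated-alone sites, 3 of 34 genes (8.82%) beside 0.845% of all genes. They were Klf6 (9.24), Klf10 (8.16) and Gadd45a (7.07), which slows the cell cycle after stress. At each of them both Qki-5 lists had a peak. Over all 158 isolated-alone boundary sites 67.1% had an isolated and 53.8% a differentiated Qki-5 peak, so 3 sites say little here. Tob2 (8.16 and 12.5) and Egr1 (6.53 and 12) were shared.

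No gene of the myelin list had an isolated boundary peak of PPARb. Neither did any gene of the histone, precursor, astrocyte, neuron, microglia, endothelial or other-tissue lists. Such a peak was at 5.01% of all genes, and these lists held 13 to 31 genes each, so its absence says little about them. Of the 31 myelin genes 8 had a differentiated-alone boundary site (25.8%, beside 38.4% of all genes). Mbp, the myelin basic protein gene, had 2 isolated-alone sites, 13 tags inside the gene (height 7.07) and 16 tags 1207 bp outside it (8.70), and 2 differentiated-alone sites at other positions (14.7 and 17.8). Sox10, the master factor of the lineage, had an isolated-alone site of height 9.79 (5.80 to 15.5) 1242 bp outside the gene, and Olig2 a differentiated-alone one of 14.2. Shared sites outside genes, over 1000 bp from a boundary, were also assigned to oligodendrocyte genes as the nearest. They were at Olig1 (9.24 and 13.4, and 10.3 and 22.7) and Cldn11 (8.16 and 7.12). Yy1 was the 1 lineage factor with an isolated-alone boundary site (9.79).

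Motifs were searched in the promoter windows of 300 bases, from 250 before to 50 after each annotated start, that held a peak centre, 711 for shared, 108 for isolated-alone and 5783 for differentiated-alone sites, and in all 32851 windows. Windows of neighbouring starts overlap, so these stand for 574, 91 and 4890 sites, and the intervals over windows are somewhat too narrow. Up to 2 mismatches were allowed in the direct repeat (2 copies of AGGTCA, 1 base apart), and none in the single half-site (AGGTCA), the GC box (GGGCGG), the ETS-type motif (CCGGAAG), the E-box (CACGTG), the CCAAT box or the AP-1 motif (TGACTCA), all searched on both strands. A window counted for the half-site also if the copy lay in a direct repeat. The direct repeat was in 1.97% (1.08 to 3.28), 0.926% (0.0234 to 5.05) and 2.40% (2.02 to 2.83) of windows of the 3 classes in that order, and in 3.86% of all windows. With at most 1 mismatch it was in 0 of 711 shared, 0 of 108 isolated-alone and 21 of 5783 differentiated-alone windows, and in 0.554% of all. The GC box was in 72.7% (69.3 to 76.0), 76.9% (67.8 to 84.4) and 72.1% (70.9 to 73.3), against 35.7% of all. The median GC content was 64.7%, 63.5% and 63.7%, against 52.7% of all.

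The classes differed from each other in 2 motifs. CCGGAAG was in 30.4% (27 to 33.9) of shared windows and 23.6% (22.5 to 24.7) of differentiated-alone windows, but in 31.3% and 30.4% when only the top band of differentiated height was taken. CCAAT was in 55.6% (45.7 to 65.1) of the 108 isolated-alone windows, and in 37.4% of shared, 38.2% of differentiated-alone and 37.4% of all windows. With 1 window per site, that of the nearest start, CCAAT was in 53.8% (43.1 to 64.4) of 91 isolated-alone, 37.5% (33.5 to 41.6) of shared and 38.3% (37.0 to 39.7) of differentiated-alone sites' windows, and CCGGAAG in 19.8% (12.2 to 29.4), 30.7% (26.9 to 34.6) and 22.4% (21.2 to 23.6). The half-site was in 7.88%, 13% and 10.1% of windows of the 3 classes, against 16.3% of all, and the AP-1 motif in 3.09%, 0.926% and 2.92%, against 5.20%. E-box shares were 12.9%, 13.9% and 11.7%, with overlapping intervals. The 14 shared windows with a direct repeat belonged to Hspd1 and Hspe1, Xrcc5, Usp20, Crnkl1 and Cfap61, Git2, Pold3, Etfa, Slc25a20, Fignl1, Foxk2 and Atg2a. Of those genes Etfa and Slc25a20 are of fatty acid oxidation. A match is a description of letters, and its absence from a window draws nothing about the receptor.

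**Figure D5:**
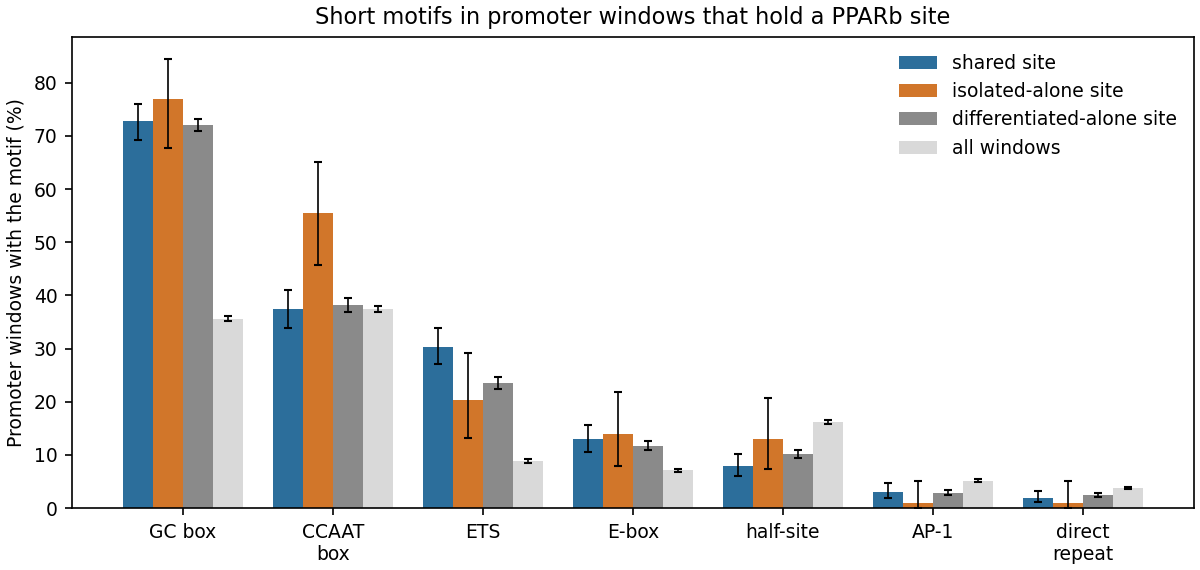
Share of promoter windows with each short motif (vertical axis, percent, bars 95% exact intervals) for windows that hold a shared, isolated-alone or differentiated-alone PPARb site and for all windows. The GC box was in 72.1% to 76.9% of windows with a site and in 35.7% of all windows, and the direct repeat in 0.926% to 2.40% and 3.86%.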

How the data were processed

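PPARb peaks were called by the authors in 1 library of each cell kind against the input of that cell kind. Per the file headers this was done with HOMER findPeaks with limits of 0.001 on the false discovery rate, 0.0001 on the Poisson p against input, 4-fold against input and 4-fold against the local 10000 bp. Per the submitters' processing notes the tools were HOMER 4.10.1, SAMtools 1.8, Bowtie 1.2.2, Trim Galore 0.4.4 and bcl2fastq 2.19.1.403, and the build was mm10. The peak height is a signal, the deposited tag count scaled to 10000000 tags, per the file headers. Fold over input is a ratio from the authors' caller, per the file headers. Total tags of the isolated PPARb list are raw counts, per the file headers, and tag numbers given above are the deposited height times the depth, rounded.

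Peaks were paired one to one, nearest first. A site's gene is one with a boundary within 1000 bp, else the gene it lies in, else the nearest. Genes came from RefSeq (GRCm38.p6, 21887 protein-coding), matching 644 of 645 list entries, and 17492 of these genes have a start in the promoter table, which holds 0 windows on chromosome 18. Named were 15 shared sites of highest smaller percentile, 8 of largest rank difference each way, 12 tallest alone of each kind, 3 on either side of the pairing limit, up to 4 shared and 3 alone per list, and 19 genes in any case, some of which are not reported here. Members and lists were chosen with earlier results of these data known. With 1 library per group no test was made, and unpaired libraries carry no replicate. Other settings tried were pairing distances, an 8-fold input filter, ranks by fold over input, boundary windows and gene assignment. Pairing and motif search were tested on simulated data. Python 3.11.15, pandas 2.3.3, numpy 2.4.6, scipy 1.17.1 and matplotlib 3.10.9 were used.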

Additional observations from a re-analysis of the deposited data

How the results depend on the processing

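Values are given in the order shared, isolated-alone, differentiated-alone where 3 stand together. No paired analysis was possible because each group had 1 library. Of 59 alternative values of the main results, 18 stayed within counting error (or within 1.5 times for counts of genes) and 41 moved. Not every order held. Shared sites had a median isolated percentile of 56.4 by height, but 45.6 at 8-fold and 49.0 by fold over input, below the middle of the list, although both values lie within the counting interval of 42.6 to 56.4, which ties make wide. Pol II peaks, fewest at isolated-alone sites within 200 bp, were at 82.3%, 45.4% and 45.1% within 1000 bp.

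Isolated peaks with a partner were 35.4%, 59.2% and 84.9% at pairing distances of 50, 100 and 1000 bp, 52.1% with 8-fold over input in both lists (374 and 16625 peaks left, 195 shared), 15.7% against an equal number of tallest differentiated peaks, and 77.9% among the 908 isolated peaks at or above the median height. Differentiated peaks with a partner were 1.87%, 3.12%, 4.47%, 1.17% and 15.7% under the first 5 of these. The median differentiated percentile of shared sites was 79.9 at 8-fold and 59.6 by fold over input. Spearman's rho was 0.27 at 8-fold, 0.03 by fold over input and 0.21 over 1000 bp from a boundary.

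Boundary shares were 69.3%, 38.4% and 27.4% at 500 bp and 83.2%, 56.3% and 42.9% at 5000 bp, and at 8-fold 67.7% of shared and 34.5% of differentiated-alone sites. HA shares were 50.3% and 76.7% (isolated-alone, differentiated-alone) at 8-fold, 21.1% and 69.6% away from boundaries, and 98.1%, 59.9% and 82.6% within 1000 bp. Isolated Qki-5 shares were 86.7%, 64.8% and 21.3% at 8-fold, 72.8%, 43.2% and 7.19% away from boundaries, and 88.5%, 68.1% and 22.4% within 1000 bp. Genes with an isolated-alone site numbered 311 over the gene span with 1000 bp. The causes were not tested. The share near an annotated start and motif shares with 1 window per site were chosen after seeing the data. The lowest isolated peaks rest on 11 tags and the lowest differentiated ones on 10, so single heights are imprecise in both lists.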

Other observations

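Of the 1391 isolated PPARb peaks 4 lay on the X chromosome (0.288%, 95% exact interval 0.0784 to 0.735), 2 of them shared. The isolated Qki-5 list, from the same cell kind and input, had 124 of 8375 there (1.48%, 1.23 to 1.76), and the differentiated PPARb list 398 of 26404 (1.51%, 1.36 to 1.66). On the autosomes the share of isolated peaks with a differentiated partner ran from 60.3% (chromosome 6, 73 peaks) to 79.0% (chromosome 11, 119 peaks).

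The 164 shared sites without an isolated Qki-5 peak lay at a gene boundary in 54.3% (46.3 to 62.1), and the 870 with one in 76.9% (74.0 to 79.7), a difference that was not tested. Genes of lipid metabolism stood in both groups. Angptl4, Acadl, Slc25a20, Aldh1l1, Entpd2 and Heyl were among the 164. Etfa, Ech1, Hadha with Hadhb, Mlycd, Lpcat3 and Fitm2 were among the 870. The median percentile of the 164 was 42.6 in the isolated and 80.2 in the differentiated list, against 56.4 and 84.4 for the 870.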
